A study of Mus musculus with 6 samples.

Results

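The 36 genes described here encode glutamate receptors, some of which act presynaptically, and proteins of the postsynaptic side, mostly of excitatory synapses. They were taken by gene name from the annotated rows of the series, as 36 of 55359 annotated genes, and all 36 were found in every library. They comprise 4 AMPA, 5 kainate, 1 delta and 7 NMDA receptor subunit genes, 6 metabotropic receptor genes, 8 scaffold genes, 2 genes of calcium/calmodulin-dependent kinase II (CaMKII) and 3 neuroligin genes. Whole brains of mouse embryos at E18.5, close to birth, gave 3 RNA libraries from PME-1 S156A knock-in animals and 3 from wild-type (WT) animals. Each library was one tube of 3 pooled brains. PME-1, the product of Ppme1, demethylates the catalytic subunit of the phosphatase PP2A, and S156A replaces the active-site serine of PME-1 with alanine. Errors and p-values therefore measure the spread between pools of brains, which hides differences among individual embryos. Strain, zygosity and sex of the embryos are not given in the labels.

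Glutamate opens AMPA and kainate receptors to give fast excitatory currents. NMDA receptors also pass calcium, and they open only when glutamate and glycine or D-serine are bound and depolarization has lifted their magnesium block. Each NMDA receptor contains the obligatory subunit GluN1 (Grin1) with GluN2 or GluN3 subunits. In the embryonic brain GluN2B and GluN2D predominate and GluN3A is also made, while GluN2A and GluN2C rise after birth. Metabotropic receptors signal through G proteins. PSD-95 (Dlg4), SAP102 (Dlg3), Shank and Homer proteins tie the receptors to each other, to CaMKII and to the actin cytoskeleton, and neuroligins connect this scaffold to neurexins across the cleft.

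Values are TPM, the deposited length-scaled share of a gene's transcripts in its library. Estimated depth was 3.24 to 4.14 aligned gigabases in the S156A libraries and 3.15 to 3.37 in the WT libraries. Ppme1 itself averaged 81.4 ± 8.37 TPM in S156A and 87.1 ± 11.5 TPM in WT (SD, n = 3 each), which does not check the genotype labels, since a point mutation need not alter transcript level. Summed TPM of 10 skeletal muscle markers was 9613 in S156A replicate 1 and 9440 in WT replicate 3, against 13.8 to 1151 in the other 4 libraries. In all 6 libraries the 11 pan-neuronal markers were present, with a summed TPM of 4797 to 6309 in S156A and 6272 to 8559 in WT. Summed TPM of 4 Y-linked genes was 0.34, 40.2 and 43.3 in S156A replicates 1 to 3 and 28.7, 65.0 and 54.7 in WT replicates 1 to 3, so Y-linked transcripts were nearly absent from S156A replicate 1. In bulk RNA, fewer cells of a type and less RNA per cell cannot be told apart.

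The promoter windows of 4 genes are shown, picked by the smallest p in each direction of the differences described below. Grin2d, Grin1 and Grm7 were the genes with the smallest p among those with lower values in S156A and a RefSeq entry. Homer1 was the gene with the smallest p among those with higher values, but its groups overlapped (limma adjusted p = 0.529). Each window holds the 250 bases before the RefSeq start on GRCm38.p6, 5′ to 3′ on the gene's own strand. Capitals mark TGACGT, the core of the cAMP response element, and GGGCGG, the GC box bound by Sp1, on either strand. The Grin2d window is chr7:45866682-45866931 on the minus strand, the Grin1 window is chr2:25319188-25319437 on the minus strand, the Grm7 window is chr6:110645262-110645511 on the plus strand, and the Homer1 window is chr13:93303507-93303756 on the plus strand.
Grin2d: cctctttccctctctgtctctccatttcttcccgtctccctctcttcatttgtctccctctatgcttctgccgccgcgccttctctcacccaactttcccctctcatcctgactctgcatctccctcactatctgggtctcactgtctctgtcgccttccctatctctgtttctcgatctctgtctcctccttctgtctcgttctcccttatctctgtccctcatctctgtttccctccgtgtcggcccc
Grin1: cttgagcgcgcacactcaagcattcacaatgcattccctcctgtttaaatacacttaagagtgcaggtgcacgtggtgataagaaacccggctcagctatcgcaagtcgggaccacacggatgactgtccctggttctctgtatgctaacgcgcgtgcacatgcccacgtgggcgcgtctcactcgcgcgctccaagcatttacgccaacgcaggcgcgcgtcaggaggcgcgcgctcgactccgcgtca
Grm7: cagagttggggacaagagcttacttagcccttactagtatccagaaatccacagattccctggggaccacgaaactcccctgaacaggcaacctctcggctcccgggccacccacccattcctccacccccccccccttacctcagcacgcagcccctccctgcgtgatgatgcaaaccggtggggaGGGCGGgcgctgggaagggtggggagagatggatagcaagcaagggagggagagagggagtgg
Homer1: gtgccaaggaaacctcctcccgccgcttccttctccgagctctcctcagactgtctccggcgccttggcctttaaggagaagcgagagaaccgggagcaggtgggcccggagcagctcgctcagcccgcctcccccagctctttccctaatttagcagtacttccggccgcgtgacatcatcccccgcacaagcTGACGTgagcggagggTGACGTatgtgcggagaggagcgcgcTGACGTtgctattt
The Homer1 window held TGACGT at 3 places, all in the part nearest the start site, and the other 3 windows held none. Among 32851 RefSeq windows of this length 6.47% held TGACGT, and Homer1 was the 1 holder among the 23 genes of the set with an entry. GGGCGG was in 12 of these 23 windows and in 32.7% of all windows, and the median GC content was 62.8% in the 23 windows and 52.4% in all. The E-box CACGTG was in 6.02% of all windows and occurred in Grin1 at 2 places. TATAAA (12.4% of all windows) and GCGGGGGCG, an Egr-type site (2.57%) that can share bases with GGGCGG, were in none of the 4 printed windows. These matches describe letters and not binding.

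Most of the receptor and postsynaptic genes had lower TPM in S156A, and NMDA and group III metabotropic receptor genes had the smallest p-values. The summed TPM of all 36 genes was 1318, 1770 and 1481 in S156A and 2079, 2046 and 1753 in WT, with overlap. Among the 35 genes that averaged 1 TPM or more, 31 had a lower and 4 a higher fitted level in S156A. The median log2 difference of the 35 was -0.35, against 0.09 over all 18893 genes tested. Grin3b averaged below that minimum and was not tested. By limma on log2(TPM + 1), 0 of the 35 passed a Benjamini-Hochberg adjusted p of 0.05, a threshold that 0.159% of all tested genes passed, 0.0847% as higher and 0.0741% as lower. At an unadjusted p under 0.05 there were 12 of 35 genes (34.3%), all lower in S156A, against a background of 5.5% of all genes lower by this rule. None was higher, against a background of 8.41%. In 15 genes the 3 S156A libraries lay below the 3 WT libraries without overlap, against a background of 7.05%, and in 0 genes they lay above, against 13.7%. The count of 12 was 7 without WT replicate 1, 7 without WT replicate 2 and 8 with the Y-linked level as a covariate. The share of all genes lower by this rule was 3.49%, 3.42% and 4.3% in these fits. With libraries scaled by 11 pan-neuronal markers, whose own median log2 difference was -0.39, the count was 6 lower and 2 higher and the median of the 35 genes was 0.02. By the same rule 1.28% of all genes were then lower and 31% higher.

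**Figure D1:**
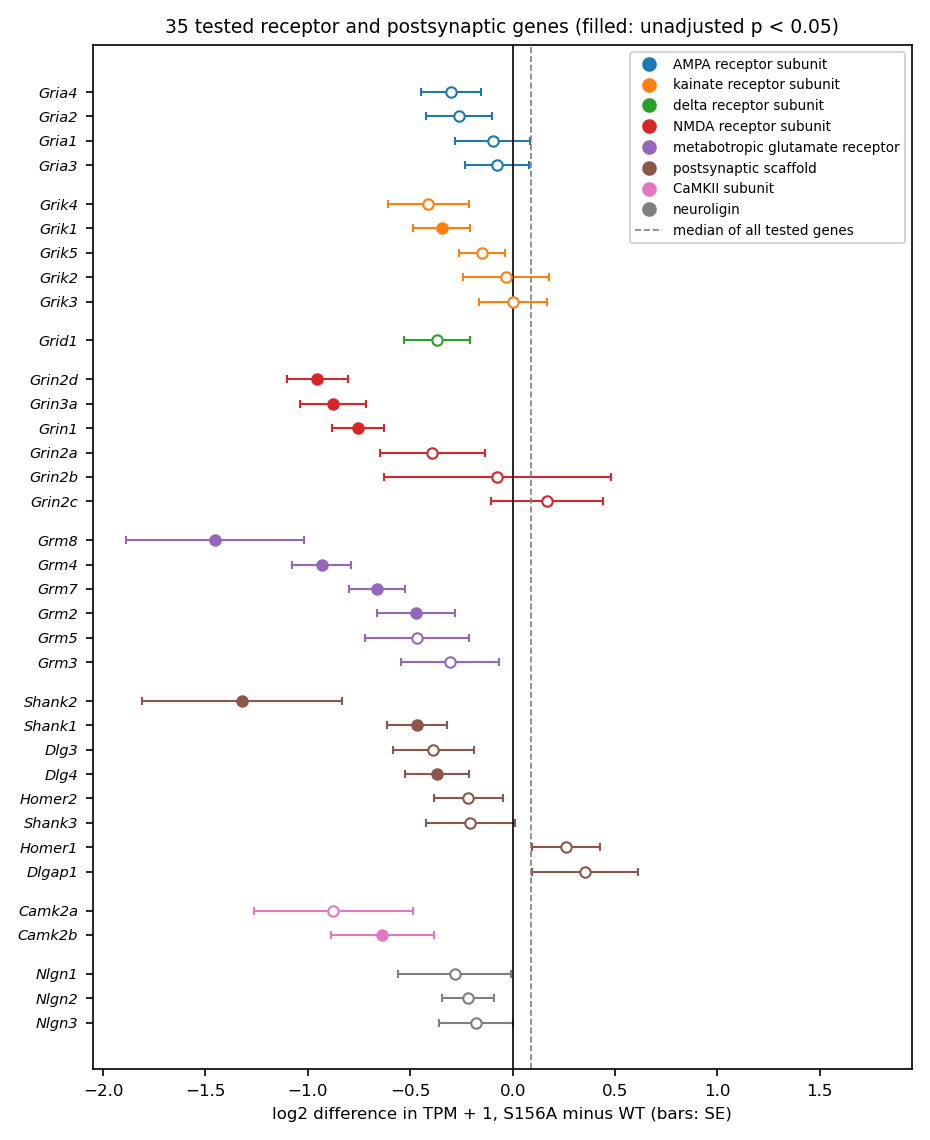
Fitted log2 difference in TPM + 1 (S156A minus WT, horizontal axis) with its SE for the 35 tested genes, grouped by role. Filled points have an unadjusted p under 0.05, all 12 of them left of 0, and the dashed line is the median of all tested genes, 0.09.

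NMDA receptor genes divided into a set with clearly lower values in S156A and a set without. Grin1, Grin2d and Grin3a had 0.502 to 0.585 of their mean WT level, while Grin2b and Grin2c overlapped between the groups. Grin1 (chr2:25181193-25209199 in the files' coordinates, minus strand) stood at 53.0, 59.3 and 60.3 TPM in S156A replicates 1 to 3, against 100.2, 109.9 and 84.8 TPM in WT replicates 1 to 3. Every S156A library lay far below every WT library, and the log2 difference was -0.76 (SE 0.13; limma adjusted p = 0.0796). Grin2d (chr7:45481307-45527802, minus strand), whose GluN2D subunit gives slowly closing receptors with weak magnesium block, stood at 27.0, 29.0 and 28.6 TPM in S156A, against 58.5, 64.6 and 45.5 TPM in WT. Its S156A libraries lay close together and well below all WT libraries, and the log2 difference was -0.95 (SE 0.15; limma adjusted p = 0.0697). With 1 library left out at a time, the limma adjusted p of Grin2d ran from 0.045, without WT replicate 3, to 0.322. Grin3a (chr4:49661611-49845744, minus strand), whose GluN3A subunit lowers calcium permeability and restrains synapse maturation, stood at 18.1, 24.7 and 22.4 TPM in S156A, against 39.7, 46.4 and 35.8 TPM in WT. Here too the groups did not overlap (log2 difference -0.88, SE 0.16; limma adjusted p = 0.0939). These 3 genes kept an unadjusted p under 0.05 in all 22 alternative fits. The spans of Grin2d and of Kdelr1 on the opposite strand overlap by 5607 bases, and no source used here says if counting was strand-specific. Kdelr1 averaged 96.1 TPM over the 6 libraries with a log2 difference of 0.01.

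The other NMDA genes showed smaller or unsteady differences. Grin2a was low at 1.22, 1.55 and 1.43 TPM in S156A and 2.76, 1.97 and 1.78 TPM in WT, without overlap (log2 difference -0.39, SE 0.26; limma adjusted p = 0.536). Grin2c was at 2.16 ± 0.21 TPM in S156A and 1.86 ± 0.62 TPM in WT, and Grin3b, whose span overlaps Tmem259 on the opposite strand, at 0.53 ± 0.21 and 1.00 ± 0.31 TPM (SD, n = 3 each). Grin2b stood at 22.9, 27.2 and 8.09 TPM in S156A and 9.03, 33.1 and 19.9 TPM in WT. One library of each group, S156A replicate 3 and WT replicate 1, was far below the others, and the SE of its log2 difference (0.55) exceeded the difference (-0.07). Among the 4 GluN2 genes Grin2d took 56.7% ± 12.5 of the summed TPM in S156A and 70.2% ± 9.13 in WT, and Grin2b took 36.2% ± 13.9 and 24.7% ± 10.8 (SD, n = 3 each), with overlap for both. On coverage, a second scale described below, these shares did not overlap: Grin2d took 67.5% ± 3.98 in S156A and 79.4% ± 0.35 in WT, and Grin2b took 23.5% ± 3.96 and 15.0% ± 1.20. Coverage is not on one scale across genes, so these are not transcript proportions.

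On TPM the AMPA genes showed small differences, and the kainate genes were mixed. The 4 AMPA genes were lower in S156A by 0.08 to 0.30 on the log2 scale, and 0 of 4 had an unadjusted p under 0.05. Gria2, whose edited GluA2 subunit makes AMPA receptors impermeable to calcium, was the most abundant at 99.3, 114 and 80.3 TPM in S156A, against 101, 119 and 132 TPM in WT. Gria1, which encodes the GluA1 subunit recruited during long-term potentiation, averaged 65.8 ± 11.8 TPM in S156A and 70.5 ± 12.2 TPM in WT (SD, n = 3 each). Gria4, typical of early development and of interneurons, averaged 36.8 ± 2.36 and 45.9 ± 7.72 TPM, and Gria3 19.7 ± 1.71 and 21.0 ± 3.28 TPM, in the same order. The GluA2 share of AMPA TPM was 44.4% ± 4.65 in S156A and 46.1% ± 6.28 in WT, with overlap. On coverage, whose shares are not transcript proportions, it was 66.2% ± 2.81 in S156A and 60.3% ± 0.28 in WT. These values did not overlap and went in the other direction. A p that misses the threshold with 3 libraries a group does not show that AMPA levels were equal.

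Among kainate genes, Grik5, which encodes the high-affinity subunit GluK5, was the most abundant at 145, 159 and 158 TPM in S156A and 188, 175 and 152 TPM in WT, with overlap. Grik1 (GluK1) stood at 19.0, 20.6 and 17.6 TPM in S156A and 26.4, 22.0 and 25.2 TPM in WT, without overlap (log2 difference -0.35, SE 0.14; limma adjusted p = 0.335). Grik4, the other high-affinity subunit gene, averaged 7.48 ± 1.26 TPM in S156A and 10.2 ± 1.19 TPM in WT, also without overlap (limma adjusted p = 0.408). Grik2 and Grik3 had log2 differences of -0.03 and 0.00, within an SE of 0.21 and 0.17. Grid1, the delta subunit GluD1, which acts as an adhesion receptor for cerebellins, stood at 12.7, 14.8 and 12.4 TPM in S156A and 20.2, 16.1 and 16.3 TPM in WT (log2 difference -0.37, SE 0.16; limma adjusted p = 0.371).

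NMDA sums also separated the groups when set against AMPA or kainate sums within each library. The summed TPM of the 7 NMDA genes was 125, 145 and 123 in S156A and 214, 259 and 190.2 in WT, without overlap. The summed TPM of the 4 AMPA genes was 205, 252 and 204 in S156A and 255, 257 and 252 in WT, where S156A replicate 2 reached the WT range. Dividing NMDA by AMPA TPM gave 0.610, 0.574 and 0.604 in S156A and 0.838, 1.005 and 0.756 in WT. This ratio does not depend on how a library is scaled as a whole, and its groups did not overlap. NMDA over kainate TPM averaged 0.51 ± 0.03 in S156A and 0.78 ± 0.12 in WT, without overlap (SD, n = 3 each). Kainate over AMPA TPM averaged 1.17 ± 0.07 in S156A and 1.11 ± 0.10 in WT, with overlap. On coverage the kainate to AMPA ratio turned to 1.52 ± 0.21 in S156A and 1.78 ± 0.06 in WT, without overlap. The families were chosen by name, but these ratios were formed after the values were seen and are given without a test.

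**Figure D2:**
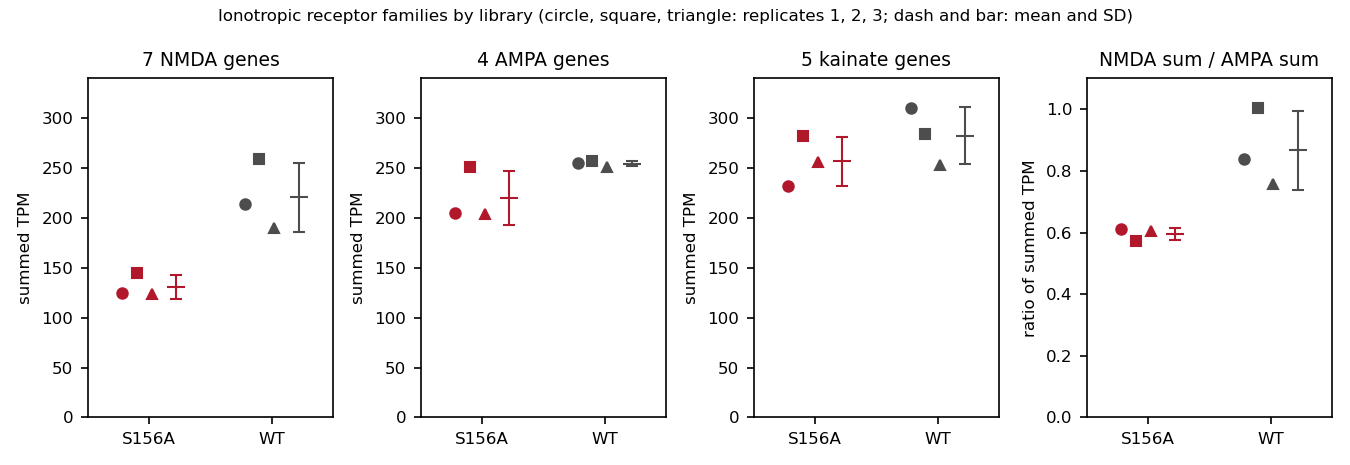
Summed TPM of the NMDA, AMPA and kainate genes and the NMDA to AMPA ratio (vertical axes) in each S156A and WT library, with mean and SD. The NMDA sums lie at 123 to 145 in S156A and 190.2 to 259 in WT, while AMPA and kainate sums overlap.

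Metabotropic receptor genes were all lower in S156A, with 4 of 6 at an unadjusted p under 0.05, against a background of 5.5% lower. Their median log2 difference was -0.57. Group III receptors, which couple to Gi/o and mostly act as presynaptic brakes on release, had the largest differences. Grm4 (chr17:27641361-27740377, minus strand) stood at 9.57, 9.11 and 9.80 TPM in S156A, against 20.3, 18.52 and 18.3 TPM in WT, with a spread within groups that was small beside the gap (log2 difference -0.93, SE 0.14; limma adjusted p = 0.0694). Grm7 (chr6:110622542-111544191, plus strand), which sits in presynaptic active zones, stood at 12.8, 14.7 and 12.6 TPM in S156A, against 22.0, 21.9 and 21.2 TPM in WT (log2 difference -0.66, SE 0.14; limma adjusted p = 0.114). Grm8 stood at 0.23, 0.49 and 2.25 TPM in S156A and 6.12, 3.17 and 3.13 TPM in WT. It did not overlap, but its values varied within each group (log2 difference -1.45, SE 0.44; limma adjusted p = 0.234).

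Of the group II genes, Grm2 stood at 8.97, 10.2 and 10.6 TPM in S156A and 16.1, 15.6 and 11.1 TPM in WT (log2 difference -0.47, SE 0.19; limma adjusted p = 0.345). WT replicate 3 lay close to the highest S156A library. Grm3, which is also made by astrocytes, averaged 19.9 ± 6.38 TPM in S156A and 24.2 ± 2.98 TPM in WT (SD, n = 3 each), with overlap. Grm5, the group I receptor that couples to phospholipase C and binds Homer, was the most abundant of the 6 at 16.9, 28.0 and 30.0 TPM in S156A and 38.2, 38.8 and 26.2 TPM in WT, with overlap (limma adjusted p = 0.453).

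**Figure D3:**
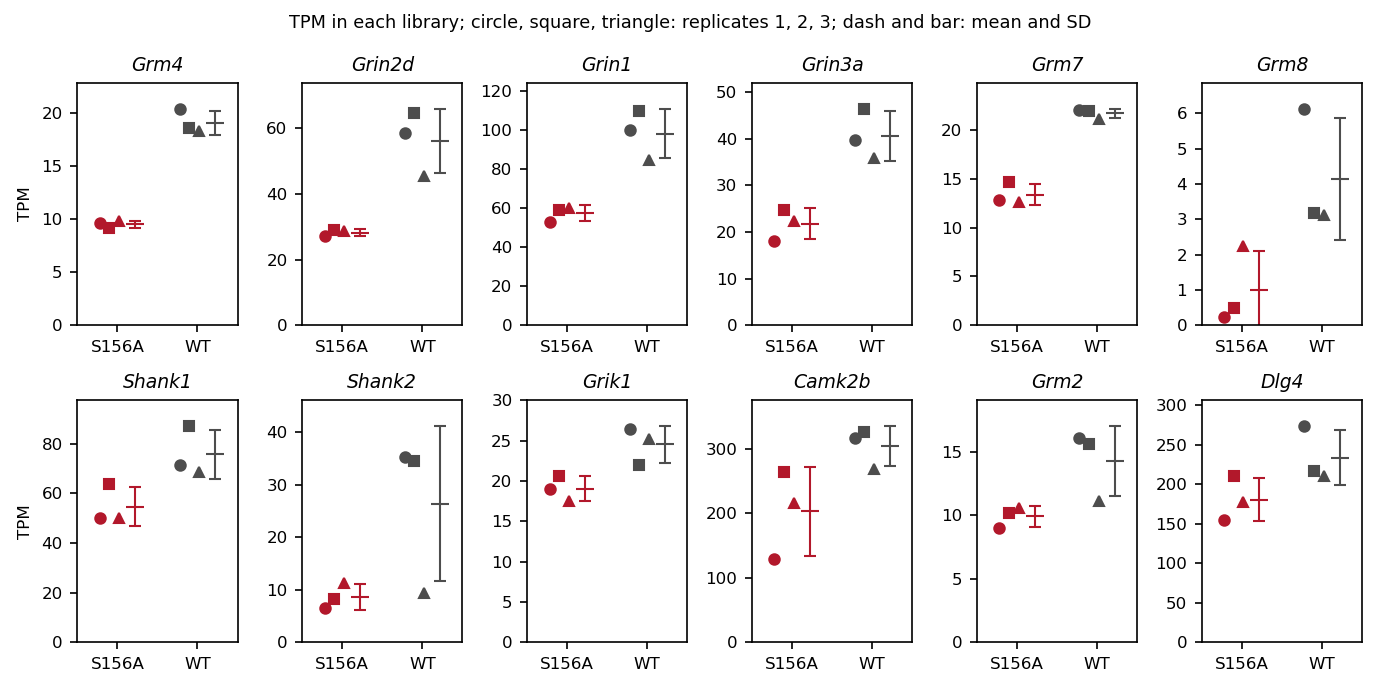
TPM (vertical axes) in each S156A and WT library for the 12 genes with an unadjusted p under 0.05, in order of p, with mean and SD. For 11 of them the groups do not overlap, and for Shank2 WT replicate 3 lies at 9.41 TPM among the S156A libraries.

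Scaffold genes were mixed, with 6 lower and 2 higher in S156A. Dlg4, the gene of PSD-95, stood at 155, 209.9 and 177 TPM in S156A and 273, 216 and 211 TPM in WT, where S156A replicate 2 nearly reached the lowest WT libraries (log2 difference -0.37, SE 0.15; limma adjusted p = 0.354). Dlg3, whose product SAP102 is the main partner of NMDA receptors before birth, averaged 26.7 ± 5.72 TPM in S156A and 35.1 ± 6.32 TPM in WT (SD, n = 3 each), with overlap. Shank1 stood at 50.02, 63.8 and 50.02 TPM in S156A and 71.3, 87.0 and 68.6 TPM in WT, without overlap (log2 difference -0.47, SE 0.15; limma adjusted p = 0.256). Shank3 averaged 26.1 ± 8.09 TPM in S156A and 29.5 ± 3.54 TPM in WT, with overlap. Homer1 and Dlgap1, the scaffold genes that were higher in S156A on TPM, both overlapped. Homer1, whose long forms link metabotropic receptors to Shank, stood at 30.5, 46.4 and 36.7 TPM in S156A and 32.7, 29.2 and 31.4 TPM in WT (log2 difference 0.26, SE 0.17; limma adjusted p = 0.529). Homer2 averaged 22.8 ± 4.29 and 26.5 ± 2.75 TPM, so that the share of Homer1 in the pair was 60.8%, 62.6% and 63.5% in S156A and 53.7%, 51.1% and 57.3% in WT, without overlap. Dlgap1, which bridges PSD-95 and Shank, averaged 35.2 ± 7.25 TPM in S156A and 28.0 ± 8.52 TPM in WT, and its log2 difference was 0.35 on TPM but -0.03 on coverage.

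Camk2b, the CaMKII gene that predominates before birth and whose product bundles actin, stood at 129, 264 and 215 TPM in S156A and 317, 326 and 268 TPM in WT (log2 difference -0.64, SE 0.25; limma adjusted p = 0.335). The groups did not overlap, and S156A replicate 1 was far below the others. Camk2a, the form that predominates in the adult forebrain, stood at 29.6, 30.3 and 10.1 TPM in S156A and 43.8, 38.6 and 35.96 TPM in WT (limma adjusted p = 0.374). Its share of the pair was 11.1% ± 7.12 in S156A and 11.5% ± 0.81 in WT (SD, n = 3 each). The 3 neuroligin genes had log2 differences of -0.28 to -0.18 and 0 had an unadjusted p under 0.05. Nlgn2, found mainly at inhibitory synapses, was the most abundant at 152, 179 and 148 TPM in S156A and 204, 188 and 164 TPM in WT, with overlap. Nlgn1, found at excitatory synapses, averaged 8.96 ± 3.31 and 10.8 ± 2.05 TPM, and Nlgn3, whose row overlaps Gm21986 on the same strand, 35.97 ± 5.59 and 41.0 ± 7.62 TPM.

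For several genes TPM and coverage gave different pictures. The same tables give coverage, the mean read depth per base of the gene, which was divided here by aligned gigabases, a scale added after the TPM values were seen. Its log2 differences are on coverage + 1, which understates low genes such as Grm4 and Grm8. FPKM times depth over coverage was checked in WT replicate 1, for genes above 1 FPKM. It was within 0.01 of 1 for 96.7% of genes with 1 annotated transcript, and for 7.74% of those with more annotated transcripts. Depth was itself estimated from coverage and FPKM, which partly sets this ratio to 1. Transcript-level values were not examined. For Shank2 this ratio was 1.00, 1.00 and 1.97 in S156A and 4.03, 4.31 and 1.44 in WT. The Shank2 TPM was 6.49, 8.32 and 11.3 in S156A and 35.4, 34.5 and 9.41 in WT (log2 difference -1.32, SE 0.49; limma adjusted p = 0.311), but its coverage per gigabase was 2.203, 2.51 and 2.01 in S156A and 2.92, 2.62 and 2.23 in WT. On coverage its log2 difference was -0.15 (limma adjusted p = 0.565), and the groups overlapped. Without WT replicate 3 the Shank2 difference on TPM was -1.92 (limma adjusted p = 0.045), so its size rests on that library and on the scale.

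Other genes of the set differed less between the scales, or in the opposite way. Grin2b coverage per gigabase was 2.43, 3.41 and 2.70 in S156A and 2.97, 3.50 and 2.76 in WT, without the large swings of its TPM. Grm8 coverage was 0.08, 0.12 and 0.06 in S156A and 0.19, 0.27 and 0.18 in WT, so the groups stayed apart at a very low level. Camk2a coverage was 2.30, 2.09 and 1.81 in S156A and 2.94, 2.87 and 2.75 in WT, without the low TPM of S156A replicate 3 (limma adjusted p = 0.187). Shank3, which overlapped on TPM, stood at 6.08, 6.01 and 5.76 in S156A and 8.48, 8.79 and 7.73 in WT on coverage (log2 difference -0.42; limma adjusted p = 0.0898). Grik1, Grik4, Gria4 and Gria3 were lower on coverage without overlap, with log2 differences of -0.35, -0.36, -0.30 and -0.145. Of these, Gria3 alone had an unadjusted limma p above 0.05. Gria1, Gria2, Grik2, Grik3 and Grik5 overlapped there. Gria2 had a log2 difference of 0.19 on coverage, against -0.26 on TPM, and with Dlgap1, Grik2 and Grik3 it was one of the 4 genes whose sign depends on the scale. Camk2b stood at 23.2, 27.6 and 25.9 in S156A and 30.3, 33.3 and 27.7 in WT on coverage, without overlap. Its log2 difference there was -0.24, against -0.64 on TPM, and its unadjusted p was no longer under 0.05. Grin1, Grin2d, Grin3a, Grm4 and Grm7 had log2 differences of -0.72, -0.91, -0.76, -0.56 and -0.52 on coverage, all without overlap, with limma adjusted p between 0.0621 and 0.0749. The NMDA to AMPA ratio on coverage was 0.68, 0.53 and 0.69 in S156A and 1.09, 1.27 and 1.06 in WT. Of the 35 genes, 31 kept the sign they had on TPM, 16 had an unadjusted p under 0.05 on coverage, all lower, and 9 had it on both scales. Of all genes 7.18% were lower and 9.39% higher by this rule on coverage. The share of all genes with it on both scales was not computed. The Homer1 share stayed higher in S156A without overlap, at 27.7% ± 0.88 against 22.1% ± 1.71 in WT. On coverage Homer1 was the smaller part of the pair, but FPKM times depth over coverage averaged 12.8 for Homer1 and 3.08 for Homer2 in WT. Coverage of different genes is therefore not on one scale, and its shares are not transcript proportions. The same holds for ratios of summed coverage. The share of Shank3 turned round, with a difference of -1.96 percentage points on coverage against 6.08 on TPM.

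**Figure D4:**
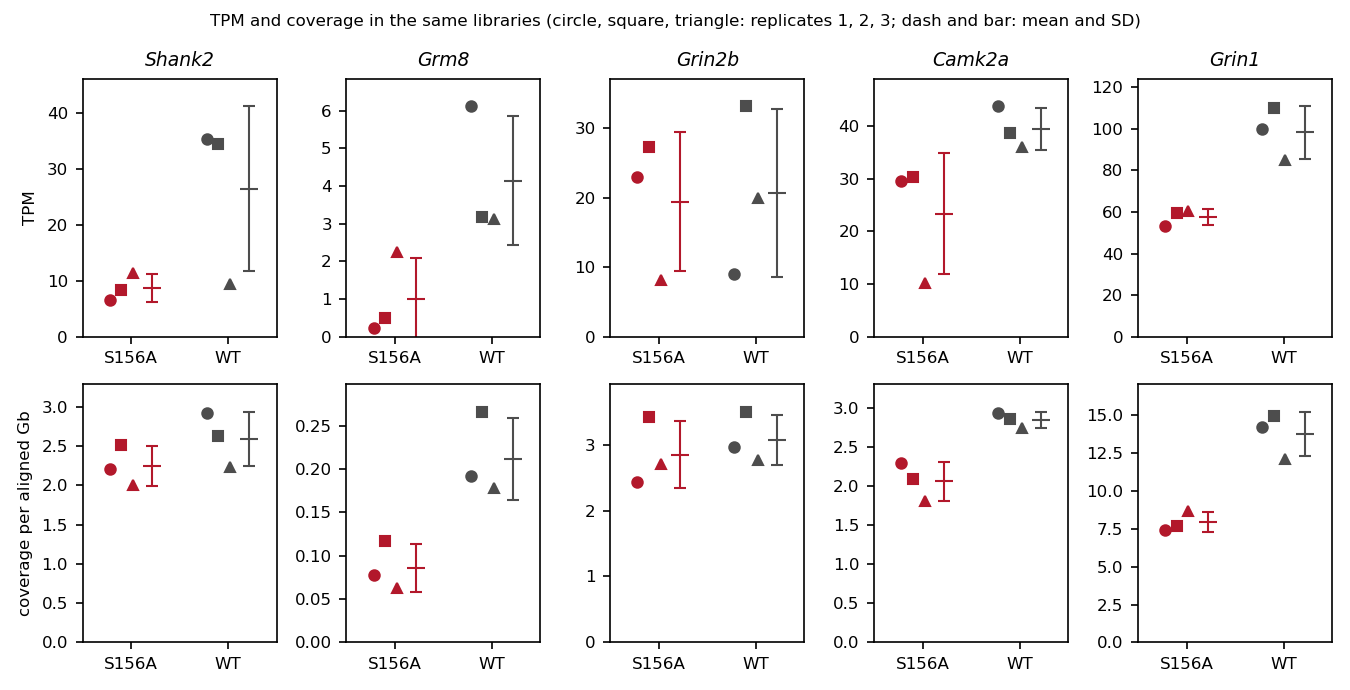
TPM (upper row) and coverage per aligned gigabase (lower row) of 5 genes in each S156A and WT library, with mean and SD. Shank2 has 2 WT libraries far above the rest on TPM but not on coverage, whereas Grin1 keeps its groups apart on both.

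Genes that assist these receptors were lower in S156A in part. Of 18 AMPA receptor auxiliary and trafficking genes 16 were lower, with a median log2 difference of -0.17. Of the 18, 2 (11.1%) had an unadjusted p under 0.05, Nsf and Gsg1l. At that p 5.5% of all tested genes were lower and 8.41% higher, and by sign alone 61.7% of all were higher. Nsf, the ATPase that disassembles SNARE complexes and binds GluA2, averaged 72.5 ± 5.46 TPM in S156A and 127 ± 22.4 TPM in WT (log2 difference -0.79; limma adjusted p = 0.096). Gsg1l, an AMPA auxiliary subunit, averaged 17.6 ± 2.80 and 27.3 ± 3.05 TPM, and Pick1, which binds the GluA2 tail, 57.3 ± 16.7 and 77.7 ± 4.32 TPM (SD, n = 3 each). The kainate auxiliary genes Neto1 and Neto2 overlapped, with log2 differences of -0.24 and 0.08. Among 23 tested genes of the wider postsynaptic density 13 were lower, 5 of them at an unadjusted p under 0.05, and 10 were higher, 1 of them so. Dlgap3, the SAPAP3 scaffold, averaged 60.8 ± 7.50 TPM in S156A and 96.0 ± 12.5 TPM in WT. Nrgn, neurogranin, which binds calmodulin, averaged 50.9 ± 9.19 and 77.2 ± 10.4 TPM, and Camk2n2, an inhibitor of CaMKII, 178 ± 27.7 and 262 ± 32.7 TPM.

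Synaptic organizers had the most genes at an unadjusted p under 0.05 among these lists. Over all tested genes 5.5% were lower and 8.41% higher at that p. Of 14 presynaptic and secreted organizer genes 12 were lower, 7 of them at an unadjusted p under 0.05, and 2 were higher, 1 of them so. Their median log2 difference was -0.44. The higher one was Ptprs, a receptor phosphatase, with 275 ± 59.9 TPM in S156A and 187 ± 13.1 TPM in WT (SD, n = 3 each), and it was named after its values were seen. Nptxr, the neuronal pentraxin receptor that clusters AMPA receptors, averaged 83.4 ± 7.93 TPM in S156A and 151 ± 22.1 TPM in WT (log2 difference -0.85; limma adjusted p = 0.0777). Cbln4, a ligand of the cerebellin family, averaged 13.5 ± 2.88 and 23.7 ± 3.56 TPM, and Nptx2, a secreted pentraxin, 12.5 ± 1.41 and 18.8 ± 1.89 TPM (SD, n = 3 each). Of 18 tested postsynaptic adhesion genes 12 were lower. Lrfn5, Lrfn1 and Slitrk1 had an unadjusted p under 0.05 and log2 differences of -0.70, -0.44 and -0.46. Of 9 genes of glutamate uptake and the glutamine cycle 4 were lower and 5 higher. Slc1a6, the transporter EAAT4, which is typical of Purkinje cells, averaged 8.74 ± 5.57 TPM in S156A and 28.2 ± 5.43 TPM in WT. Slc1a1, the neuronal transporter, averaged 27.4 ± 5.30 and 40.4 ± 7.001 TPM, and Slc38a2, a glutamine carrier, 130 ± 14.3 and 101 ± 5.80 TPM. Homer3, a relative of Homer1 and Homer2 outside the set, averaged 50.1 ± 3.23 TPM in S156A and 34.8 ± 2.52 TPM in WT. No gene named from these lists had a limma adjusted p under 0.05.

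Markers of several cell types differed between the same libraries. Of 11 pan-neuronal markers 10 were lower in S156A, 6 of them at an unadjusted p under 0.05 (median log2 difference -0.39). By that rule 5.5% of all tested genes were lower. All 8 thalamic and all 8 monoaminergic markers were lower, with medians of -0.78 and -1.62, as were 8 of 9 hindbrain and spinal markers, with a median of -1.18. Their summed TPM was 139 to 224, 15.8 to 19.9 and 51.0 to 61.3 in S156A, against 262 to 428, 53.3 to 82.0 and 109 to 136 in WT, and no marker of these lists was at 0 in all libraries. Of 10 cortical projection neuron markers 7 were higher (median 0.48, summed TPM 559 to 939 in S156A and 485 to 533 in WT). Of 9 GABAergic markers 6 were higher (median 0.40), but their summed TPM was 569 to 711 in S156A and 630.1 to 799 in WT, with overlap. Slc32a1 and Sst were lower among them. They averaged 67.5 ± 7.54 and 195 ± 33.2 TPM in S156A and 105.6 ± 10.97 and 278 ± 27.8 TPM in WT (SD, n = 3 each). Gad1 was also lower, at 93.5 ± 15.5 TPM in S156A and 112 ± 20.6 TPM in WT, with overlap. These 3 markers were named after their values were seen. All 10 microglia markers and 7 of 10 astrocyte markers were higher, with medians of 1.52 and 0.48 and summed TPM of 448 to 547 and 1862 to 2705 in S156A, against 144 to 243 and 1105 to 1212 in WT. Of all tested genes 61.7% were higher, which is close to the shares of higher cortical, GABAergic and astrocyte markers.

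Scaling each library by its pan-neuronal markers placed the median log2 difference of the 35 genes at 0.02 and that of all genes at 0.43. The genes of the set were then 19 higher and 16 lower. Grin1, Grin2d, Grin3a, Grm4, Grm8 and Shank2 were still lower at an unadjusted p under 0.05. Their log2 differences were -0.37, -0.58, -0.50, -0.57, -1.24 and -0.96. Homer1 (0.63; limma adjusted p = 0.0888) and Gria1 (0.28; limma adjusted p = 0.153) were higher on that scale. At an unadjusted p under 0.05, 31% of all genes were higher on that scale and 1.28% lower. Dlg4 (0.02) and Grik1 (0.02) lost their difference and turned sign. With the muscle markers as a covariate, Grin1, Grin2d, Grin3a and Grm4 had limma adjusted p of 0.033, 0.0313, 0.0401 and 0.0388. Leaving out S156A replicate 1 and WT replicate 3, where muscle markers were highest, their log2 differences were -0.80, -1.07, -0.84 and -0.97. Their limma adjusted p were then 0.0919, 0.0793, 0.112 and 0.129, all above 0.05. Whether the share of subcortical neurons or of glia set the differences of the receptor genes was not tested.

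**Figure D5:**
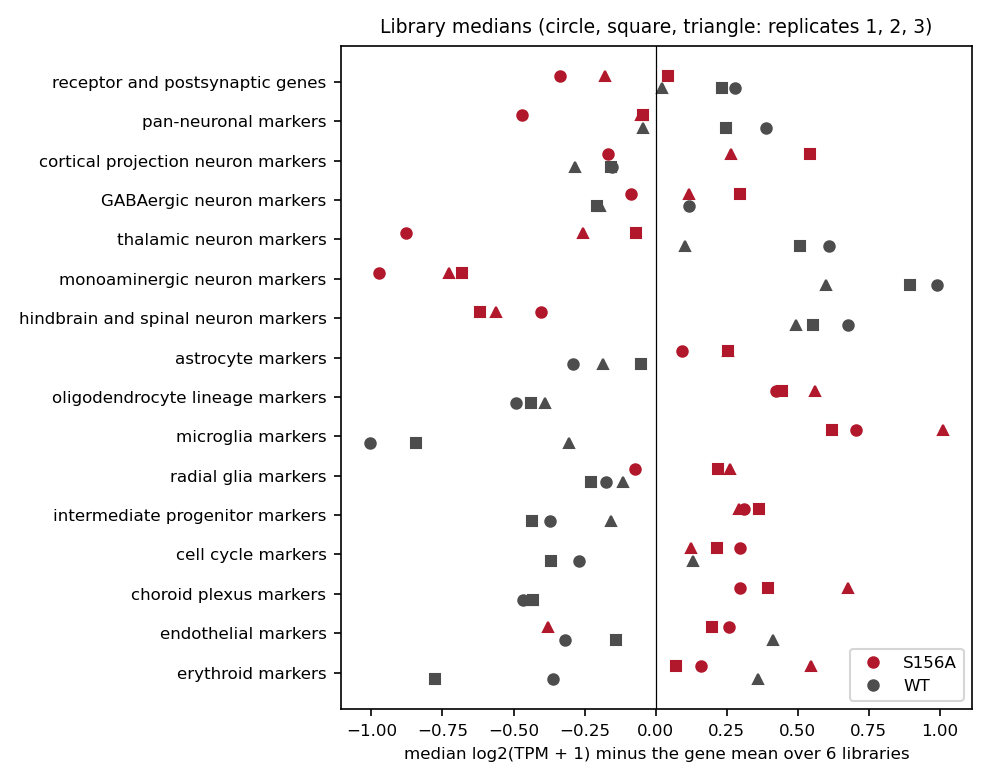
Median log2(TPM + 1) of the receptor and postsynaptic genes and of 15 marker lists in each S156A and WT library, each gene taken relative to its mean over the 6 libraries (horizontal axis). The receptor and postsynaptic genes run from -0.34 to 0.04 in S156A and from 0.02 to 0.28 in WT, and the monoaminergic and hindbrain markers separate the groups more widely.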

How the data were processed

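Groups and replicate numbers came from the sample titles. Per the submitters' processing notes, reads were trimmed with Trim Galore 0.6.6 and the tools HISAT2 2.2.1 and StringTie 2.1.5 were used. The notes name hg38, yet rows hold mouse gene identifiers. Of 52083 genes matched by identifier, 4.15% started within 1000 bases of their GRCm38 position, so coordinates are as in the files, whose build no source used here states. RefSeq promoters are on GRCm38.p6, and 23 of the 36 genes had an entry. The deposited TPM and FPKM values and the deposited coverage, mean depth per base, are normalized or raw values without read counts. The authors' tables list annotated and assembled rows together, so the deposited TPM column exceeds the sum a TPM column should have and was recorded as a score for that reason. Annotated rows alone were used, and rows sharing an identifier were summed. Depth is the commonest ratio of coverage to FPKM, an estimate, so no counting intervals are given.

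The test was limma 3.58.1 in R 4.3.3 on log2(TPM + 1) for genes averaging 1 TPM or more, two-sided, with a mean-variance trend and Benjamini-Hochberg adjustment over all 18893 genes. The log2(TPM + 1) scale understates changes of low genes. The fit was tested on simulated data. The genes, lists and alternatives were chosen with earlier results of these data known. Values in every library are given for genes with an unadjusted p under 0.05 and for the most abundant gene of each role. Up to 3 genes with the smallest p were named from each further list, except that some relatives of the set are not reported here, and other genes were added after their values were seen. The coverage scale and the ratios between families were also added then. In total 22 alternative fits were run.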

Additional observations from a re-analysis of the deposited data

How the results depend on the processing

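The median log2 difference of the 35 genes stayed negative, between -0.44 and -0.22, in 21 of the 22 alternative fits, and was 0.023 when libraries were scaled by pan-neuronal markers. With that scaling the count at an unadjusted p under 0.05 was 6 lower and 2 higher, in place of 12 and 0. Of all genes 1.28% were then lower and 31% higher, in place of 5.5% and 8.41%. Relative to all genes tested, the median was -0.44, and -0.41 with that scaling. The number of the 35 genes called by limma over all genes was 0, but 5 with library weights (309 of all genes called) and 4 with the muscle covariate (310 of all genes). Leaving out 1 library at a time gave 0 to 2 genes called, 7 to 14 lower and 0 to 1 higher at an unadjusted p under 0.05, and medians of -0.44 to -0.27. Of all genes 3.42% to 6.55% were then lower and 4.74% to 10% higher at that p. Without WT replicate 3 the 2 genes called were Grin2d and Shank2. Calls over all genes numbered 30, but 64 on coverage, an alternative chosen after seeing the data, 16 without the trend, 11 with pan-neuronal scaling, 1 with the Y-linked covariate, and 0 with the block, with no filter and without S156A replicate 1 and WT replicate 3. They numbered 0 to 70 with 1 library left out. Grin1, Grin2d, Grin3a and Grm4 kept an unadjusted p under 0.05 in all 22 fits. Sign changes occurred in 40 of 767 combinations of gene and setting, most often in Grik3 and Grik2, whose differences lie near 0. Among the 12 genes at an unadjusted p under 0.05, Grik1 (0.023) and Dlg4 (0.017) turned sign with pan-neuronal scaling. Of 32 subunit shares 6 did not overlap on TPM, among them those of Homer1 and Homer2, which mirror each other. How many shares would separate by chance was not computed. The share of Shank3 turned to -1.96 percentage points on coverage. With the replicate number as a replicate block, 9 genes were lower at an unadjusted p under 0.05, 0 were called and the median was -0.35. By that rule 4.33% of all genes were lower. Deviations of same-numbered libraries from their group means had correlations of -0.55, 0.20 and -0.41. S156A replicate 1 and WT replicate 3, where muscle markers were highest, had 0.65. Since these 2 libraries carry different numbers, the correlations cannot tell whether the numbers pair the libraries. Read numbers behind genes near 1 TPM, such as Grin2a, Grin2c and Grin3b, are unknown, so their counting error could not be given.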
